A study of Mus musculus with 34 samples.

Results

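The transcriptional response to dexamethasone (Dex) was followed in mouse mammary adenocarcinoma cells that carry the Y551A form of the glucocorticoid receptor (GR). The 6 libraries of the line D4-GFP-mGR-Y551A were taken by their labels, 3 treated with Dex and 3 with the ethanol vehicle, out of 34 libraries in the series. The cells descend from the 3617 line, had their own GR knocked out (GRKO) and stably express GFP-tagged mouse GR with a tyrosine of the ligand-binding domain replaced by alanine (Y551A). Both groups share that background, serum stripped with charcoal and dextran (10%), tetracycline at 5 µg/ml for at least 24 h, and an admixture of 5% Drosophila S2 cells as a spike-in, which was not used here. Treatment lasted 2 h, with Dex at 100 nM or ethanol, and total RNA depleted of ribosomal RNA was sequenced as 100 bp stranded pairs. For comparison, 6 libraries of the line D4-GFP-mGRwt, which carries the wild-type receptor in the same GRKO background and had the same treatment, were used. Both lines were fitted together with 6 libraries labelled Y551A-Dim, also treated with Dex or ethanol, so that 18 libraries gave 1 estimate of the spread. Wild-type libraries from another set of the series were not used. The labels name 1 line per receptor form, so an effect of the substitution and any other difference between the lines cannot be told apart. The labels call the replicates triplicates without saying whether they were separate cultures. The p-values therefore measure the spread between replicate libraries of the 18 fitted, which may be technical.

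GR is a nuclear receptor that sits in the cytoplasm with Hsp90 chaperones until a glucocorticoid binds. It then moves to the nucleus and binds DNA, classically as a dimer on a palindromic glucocorticoid response element, and raises or lowers the transcription of nearby genes. Glucocorticoids are known for inducing feedback genes such as Per1, Tsc22d3 and Fkbp5 within hours and for lowering genes driven by AP-1 and NF-kB. In bulk RNA, a gene's lower level in every cell and its loss from some of the cells cannot be told apart.

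The 6 libraries held 45255078 to 58488207 counted reads and 20311 to 21674 genes with a count. Dex replicate 1 stood apart from its group. Its log2 levels over 9414 well-counted genes differed from the mean of the other Dex libraries with an SD of 0.121, against 0.0798 to 0.0951 for the 5 other libraries, and those differences had a Spearman correlation of 0.398 with exonic length, against -0.27 to 0.156. Results were therefore also computed without it, and a change of a call is given where it occurred for a gene described. Although the cells are labelled mammary adenocarcinoma, the epithelial markers Epcam, Foxa1 and Cldn3 had no count in any of the 6 libraries, and Krt8, Krt18, Krt19 and Cdh1 stayed below 1 CPM, the unit of library-scaled counts used for all levels. Of the 9 mesenchymal markers, Vim, Fn1 and Col1a2 were abundant and carried most of the sum, while Col1a1 stood at 1.43 to 2.39 CPM and Dcn and Lum had 6 and 8 counts over the 6 libraries. The 9 summed to 11000 to 11500 CPM with ethanol and 11200 to 11700 CPM with Dex. The 10 luminal markers summed to 11.8 to 13 CPM with ethanol and 13.9 to 15.4 CPM with Dex, mostly from Gata3 and Esr1 (4.86 to 5.34 CPM). Gata3 was the only marker of any cell type called. The basal markers summed to 19.4 to 20.8 CPM with ethanol and 18.9 to 19.6 CPM with Dex, nearly all from the keratin gene Krt14 (18.1 to 19.7 CPM). The sums of the immune, endothelial and adipocyte markers were low in both groups, with Adipoq, Lep, Adgre1 and Cd3e at 0 counts.

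Nr3c1, the gene of GR, was present in every library of the knockout-derived line, at 342, 352 and 341 CPM with ethanol and 380.0, 374 and 377 CPM with Dex. Each Dex library lay above each ethanol library, by a small amount (log2 fold change 0.13, SE 0.0307, adjusted p = 0.0206). The call was lost without Dex 2, Dex 3, ethanol 1 or ethanol 3 (adjusted p up to 0.132). It was also lost when only the 6 Y551A libraries were fitted (adjusted p = 0.0876), with replicate number as a block (adjusted p = 0.165) and with no low-count filter (adjusted p = 0.0712). Reads of the introduced receptor and of any remaining transcript of the disrupted gene share this gene name and cannot be told apart. The parental 3617 cells carry an array of a Dex-inducible mouse mammary tumour virus promoter driving a Harvey ras gene. Whether reads from that array count toward the mouse gene Hras was not tested. Hras stood at 109, 99.6 and 105 CPM with ethanol and 110.5, 117 and 121 CPM with Dex, so each Dex library was above each ethanol library. The change missed the threshold (log2 fold change 0.15, SE 0.0405, adjusted p = 0.0502) and passed it without Dex replicate 1 (adjusted p = 0.0141) or ethanol replicate 1 (adjusted p = 0.0306). It also passed with DESeq2 size factors, with library totals, with no low-count filter, with one at 1 CPM and in DESeq2, at adjusted p values of 0.0123 to 0.0488. In the wild-type line Hras was called raised (log2 fold change 0.21, adjusted p = 0.00142), and the difference between the lines was not called (adjusted p = 0.939).

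Dex changed few genes, and mostly upward. Of 16140 genes tested, 230 rose (1.43%) and 67 fell (0.415%) at a Benjamini-Hochberg adjusted p below 0.05 in edgeR's quasi-likelihood test, while the median log2 fold change over all genes tested was 0.000207. A change of at least 1.5-fold was reached by 70 of the raised genes (0.434% of those tested) and by 5 of the lowered ones (0.031%). The raised genes had a median log2 fold change of 0.385, or 1.31-fold. At least 2-fold was reached by 33 and at least 4-fold by 16, and 6 passed 8-fold when genes without a count in ethanol were set at their lower bound. The lowered genes had a median of -0.304, a decrease of 19.0%. In all 230 raised genes and all 67 lowered genes the lowest and highest libraries of the groups did not overlap. Over all genes tested, the groups did not overlap in 7.43% with Dex higher and in 6.53% with Dex lower. Leaving out each of the 6 libraries in turn, 167 of the 230 raised and 32 of the 67 lowered genes were called every time. Without Dex replicate 1 alone, 216 genes rose and 88 fell, and 201 of the raised and 50 of the lowered genes were the same, with no change of sign; 19 genes then fell at least 1.5-fold. Without ethanol replicate 1, 42 genes fell.

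**Figure D1:**
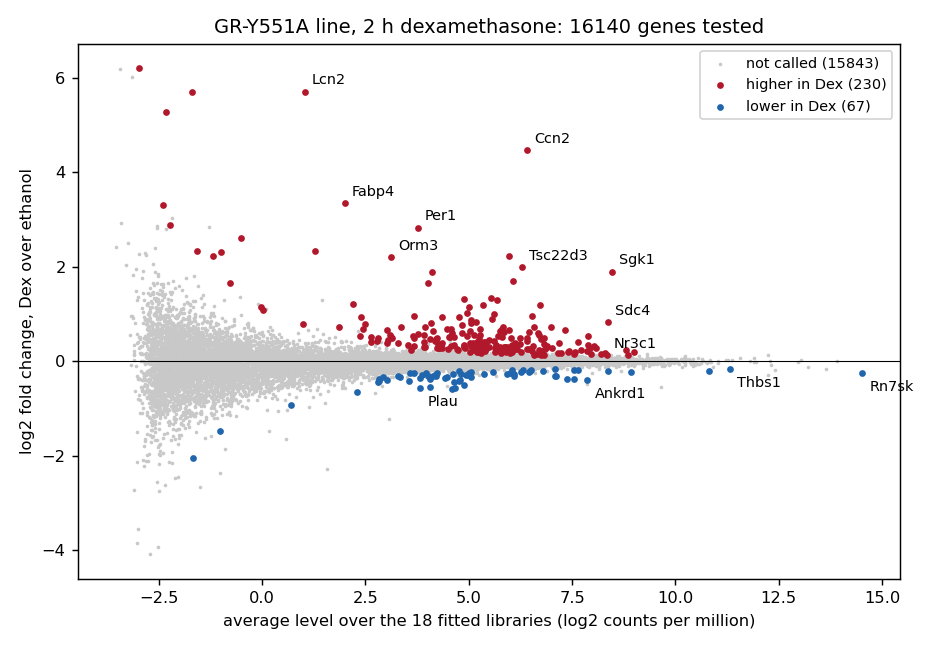
Log2 fold change of Dex over ethanol in the Y551A line (vertical axis) against average level in log2 CPM (horizontal axis) for 16140 genes tested, with one point per gene. Red points are the 230 raised genes and blue points the 67 lowered genes; the raised genes reach a log2 fold change of 4 and more, while the lowered genes above an average log2 CPM of 1 all lie above -1.

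Protein-coding genes made up 94.9% of the 297 called genes and 74.8% of the genes tested. Calls were spread unevenly over expression level. Of the 5380 least expressed genes 0.279% rose and 0.0558% fell, against 1.84% and 0.706% in the middle 5380 and 2.16% and 0.483% in the top 5380. Summed over genes, the raised genes gained 4803 CPM, of which 10 genes carried 31.5%. Sgk1, a kinase of ion and nutrient transport, alone gained 486 CPM (10.1% of the sum). It was followed by Sdc4 (195 CPM), a cell-surface heparan sulfate proteoglycan, and by Ccn2 (161 CPM). The lowered genes lost 5334 CPM, of which the small nuclear RNA gene Rn7sk accounted for 3970 CPM. Without Rn7sk the loss was 1364 CPM, carried most by Thbs1, an extracellular matrix glycoprotein, and S100a6, a calcium-binding protein, with 286 and 296 CPM. Thbs1 (log2 fold change -0.17, adjusted p = 0.0405) was not called without Dex 3, ethanol 2 or ethanol 3 (adjusted p up to 0.276), and S100a6 was not called without ethanol 1 (adjusted p = 0.054).

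The strongest induction among abundant genes was that of Ccn2 (chr10:24595442-24598683, plus strand), a secreted matricellular protein also known as connective tissue growth factor. Its level was 7.56, 8.08 and 7.01 CPM with ethanol and 174, 166 and 165 CPM with Dex. The groups were far apart with little spread inside either (log2 fold change 4.48, SE 0.0596, adjusted p = 3.84e-27), a 22.2-fold rise. Tsku, a secreted leucine-rich proteoglycan, rose 3.26-fold, from 34.6 ± 0.564 to 113 ± 5.25 CPM (mean ± SD, n = 3 per group throughout; log2 fold change 1.71, adjusted p = 1.49e-14). Sdc4 (log2 fold change 0.83, adjusted p = 1.39e-13) and the peptide hormone gene Adm (log2 fold change 0.93, adjusted p = 3.39e-08), chosen after their values were seen, rose as well. Compared per length, Ccn2 stood at 2.64 CPM per kb of exon with ethanol and 58.9 with Dex and Tsku at 11.3 CPM per kb of exon with ethanol and 37 with Dex, so Ccn2 went from below Tsku to above it.

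Among the genes with the largest rises were 4 low-level genes for secreted or binding proteins. Lcn2, the iron-scavenging lipocalin, had 10, 0 and 2 counts with ethanol and 203, 151 and 228 with Dex, so the lowest Dex library held 151 counts and the highest ethanol library 10 (log2 fold change 5.71, SE 0.393, adjusted p = 4.51e-11). Orm3, an orosomucoid of the acute phase, stood at 4.67, 4.59 and 5.61 CPM with ethanol and 21.4, 23.3 and 23.5 CPM with Dex (log2 fold change 2.20, SE 0.0994, adjusted p = 5.07e-15), with the split of reads from its close copy Orm1 uncertain. S100a7a, a secreted calcium-binding protein, was at 0.469, 0.409 and 0.365 CPM with ethanol and 2.16, 2.08 and 2.01 CPM with Dex (log2 fold change 2.33, SE 0.216, adjusted p = 2.23e-08). Fabp4, a fatty-acid carrier of adipocytes, had 14, 24 and 14 counts against 182, 142 and 153 (log2 fold change 3.35, SE 0.218, adjusted p = 1.47e-11), while the adipocyte markers Adipoq and Lep had no count. All 4 genes showed no overlap between the groups, and Lcn2, S100a7a and Fabp4 remained below 5 CPM after induction.

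Intracellular regulators formed the next group. Sgk1 (chr10:21882184-21999903, plus strand) stood at 177, 179 and 180.1 CPM with ethanol and 652, 672 and 671 CPM with Dex, the highest level of any gene raised at least 2-fold (log2 fold change 1.90, SE 0.0376, adjusted p = 4.55e-23). Tsc22d3, the glucocorticoid-induced leucine zipper, was at 37.2, 38.1 and 36.8 CPM with ethanol and 138, 161 and 146 CPM with Dex (log2 fold change 1.99, SE 0.0508, adjusted p = 1.73e-20). Per1, a repressor in the circadian clock, was at 3.44, 4.84 and 5.00 CPM with ethanol and 38, 28.4 and 28.2 CPM with Dex, with Dex replicate 1 the highest (log2 fold change 2.83, SE 0.127, adjusted p = 4.72e-15). In all 3 genes every Dex library was more than 2-fold above every ethanol library.

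Spsb1, an adaptor of a ubiquitin ligase, rose 3.71-fold, from 8.19 ± 0.443 to 30.4 ± 0.993 CPM (log2 fold change 1.89, adjusted p = 1.04e-15), and the arrestin-domain gene Arrdc2 rose 3.15-fold, from 7.48 ± 1.15 to 23.5 ± 1.40 CPM (log2 fold change 1.66, adjusted p = 4.99e-13). Errfi1, which restrains EGF receptor signalling, rose 2.47-fold, from 33.1 ± 1.83 to 81.7 ± 2.41 CPM (log2 fold change 1.31, adjusted p = 1.6e-17). Sphk1, which makes sphingosine 1-phosphate, rose 2.20-fold, from 24 ± 1.04 to 53 ± 5.07 CPM (log2 fold change 1.14, adjusted p = 1.42e-13), and Ampd3, the AMP deaminase, 2.53-fold, from 25.8 ± 0.529 to 65.2 ± 3.96 CPM (log2 fold change 1.34, adjusted p = 2.81e-15). Other raised regulators, with log2 fold changes in parentheses, were Arl4d, a small GTPase (1.33), Map7d2, a microtubule-associated protein (1.21), Foxred2, an endoplasmic reticulum protein (1.19), Irs2, an insulin receptor substrate (1.01), Tob2, an antiproliferative protein of the BTG family (1.00), and Il6ra, the receptor chain for interleukin 6 (0.96). Their adjusted p ran from 1.96e-15 (Arl4d) to 4.58e-07 (Map7d2). Bcl2l1, which encodes the survival protein Bcl-xL, rose from 57.9 ± 2.49 to 112 ± 1.33 CPM (log2 fold change 0.96, adjusted p = 1.04e-15).

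**Figure D2:**
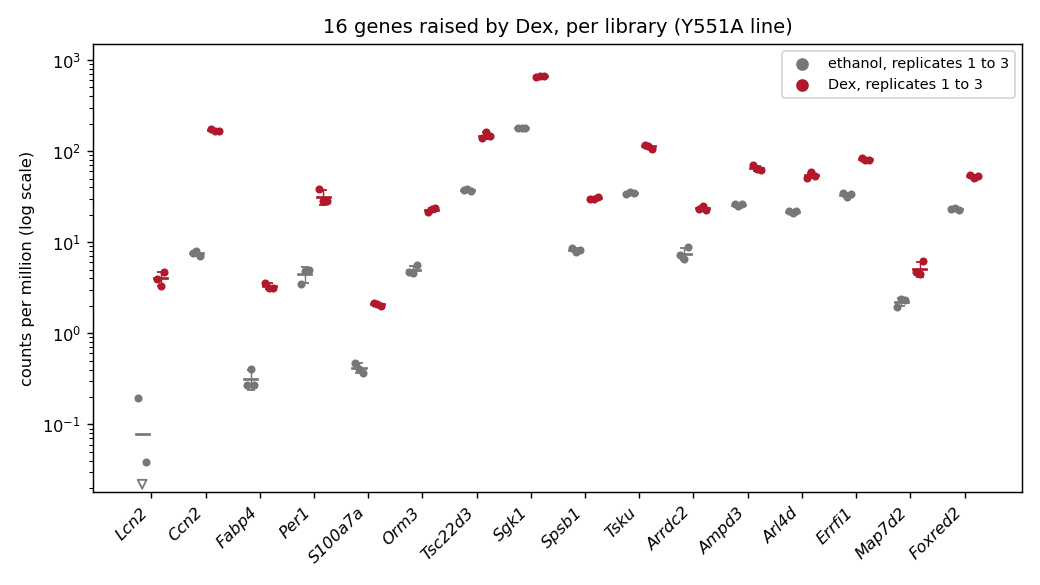
Level in CPM on a log axis of 16 genes raised by Dex in the Y551A line, with one point per library (grey ethanol, red Dex), the group mean as a bar and the SD as whiskers, n = 3. The Dex and ethanol libraries do not overlap for any of the 16 genes; the open triangle marks ethanol replicate 2 of Lcn2, which had 0 counts, and no SD is drawn for that group.

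Most tested members of a list of genes known as GR-induced in other tissues rose. The list was written with earlier results of these data known, so its counts are a description and no independent check. Of its 40 genes, 32 passed the low-count filter, 23 rose and none fell, against 1.43% raised over all genes tested. The median log2 fold change of the 32 was 0.565, against 0.000207 over all genes, and it was unchanged with Klf15 set at its bound. Besides the genes above, Fkbp5, the co-chaperone that dampens GR itself, rose from 61.6 ± 1.99 to 102 ± 4.01 CPM (log2 fold change 0.72, adjusted p = 1.66e-11), and Glul, glutamine synthetase, from 96.5 ± 2.58 to 160.5 ± 6.08 CPM (log2 fold change 0.73, adjusted p = 4.82e-11). Mt1, the metal-binding metallothionein, stood at 16.6, 16.4 and 17.3 CPM with ethanol and 29.7, 32 and 31 CPM with Dex (log2 fold change 0.88, SE 0.134, adjusted p = 9.06e-05). Its groups did not overlap.

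Further raised members of the same list, with log2 fold changes in parentheses, were the transcription factors Cebpd (0.93), Cebpb (0.54), Klf9 (0.83) and Bcl6 (0.68), the transglutaminase Tgm2 (0.40), the small GTPase Rhob (0.54), the lipase inhibitor Angptl4 (0.39), the kinase regulator Pik3r1 (0.33) and the cell-cycle inhibitor Cdkn1a (0.31). Each of these 9 had an adjusted p of 0.00125 or below. Klf15, a factor of metabolic genes, had no count in any ethanol library and 8, 5 and 4 counts with Dex, at least 6.35-fold higher against a floor of 3 counts over the ethanol group. Its call was lost without Dex 1, ethanol 1, ethanol 2 or ethanol 3 (adjusted p up to 0.0711). The 9 members not called included Pdk4 (log2 fold change 0.14, adjusted p = 0.856), Ddit4 (log2 fold change -0.10, adjusted p = 0.479), Nfkbia (log2 fold change 0.09, adjusted p = 0.744), Rgs2 (log2 fold change -0.17, adjusted p = 0.895) and Gadd45b (log2 fold change 0.26, adjusted p = 0.0577).

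The promoters of the raised genes were read for the palindromic response element. RefSeq promoter windows (GRCm38.p6, the build also called mm10), from 250 bases before to 50 bases after a transcript start, were matched by symbol to 10147 of the 16140 genes tested. The motif GNACANNNTGTNC, which reads the same on both strands, occurred in 6 of the 176 raised genes with a window (3.41%), in 0 of 39 lowered genes, in 36 of 9932 genes not called (0.362%) and in 42 of all 10147 (0.414%). The AP-1 motif TGANTCA, also a palindrome, occurred in 20 raised genes (11.4%), in 3 lowered genes (7.69%) and in 6.65% of all. A gene could have several windows, with 253 over the raised genes and 12649 over those not called. Counted per window, the receptor motif occurred in 2.37% and 0.308% of these, and the AP-1 motif in 8.7% and 5.53%. A match describes letters in a short window, and elements farther away were not read. The 6 raised genes with the receptor motif are shown because their windows hold it, with the motif in capitals, 5′ to 3′ on the gene's strand. The stretches of those windows are chr10:21993640-21993889, plus strand for Sgk1, chr8:94178965-94179037, plus strand for Mt1, chr13:33569475-33569547, minus strand for Gm6093, chr2:24440208-24440280, plus strand for Gm13415, chrX:159459127-159459155, plus strand for Map7d2 and chr10:128673944-128673972, minus strand for Suox.
Sgk1: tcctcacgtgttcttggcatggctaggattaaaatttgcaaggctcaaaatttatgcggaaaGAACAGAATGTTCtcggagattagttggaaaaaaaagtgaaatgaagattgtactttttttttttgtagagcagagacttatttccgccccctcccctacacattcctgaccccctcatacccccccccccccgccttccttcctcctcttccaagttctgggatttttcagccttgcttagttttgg
Mt1: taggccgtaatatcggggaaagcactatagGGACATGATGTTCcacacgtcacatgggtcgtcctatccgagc
Gm6093: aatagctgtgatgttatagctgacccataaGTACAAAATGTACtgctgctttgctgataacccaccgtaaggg
Gm13415: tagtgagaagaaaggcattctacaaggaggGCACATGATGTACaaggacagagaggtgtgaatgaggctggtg
Map7d2: acaggacaGGACACAGTGTTCacagtctg
Suox: ggacgcctGCACAAACTGTACacgtcacg
The motif began 188 bases before 1 of the 6 annotated Sgk1 starts, 94 bases before the Mt1 start, 200 bases before that of Gm6093, 155 before that of Gm13415 and 46 before that of Suox, and 11 bases after 1 of the 2 annotated Map7d2 starts. Sgk1 and Mt1 are described above. The long noncoding RNA Gm6093 had 0, 0 and 2 counts with ethanol and 27, 28 and 27 with Dex, without overlap (log2 fold change 5.28, SE 0.853, adjusted p = 0.000209). Gm13415 had 5, 6 and 4 counts against 20, 28 and 20, and its call was lost without Dex 2, ethanol 1, ethanol 2 or ethanol 3 (adjusted p up to 0.0811). Suox, the sulfite oxidase, stood at 21.1, 18.6 and 18.1 CPM with ethanol and 26.8, 26.3 and 29.6 CPM with Dex (log2 fold change 0.52, SE 0.0659, adjusted p = 6.43e-06), and Map7d2 at 1.94, 2.35 and 2.33 CPM with ethanol and 4.76, 4.43 and 6.15 CPM with Dex (log2 fold change 1.21, SE 0.133, adjusted p = 4.58e-07). Neither showed overlap between the groups. Gm6093, Gm13415 and Suox are named for the motif and not for the size of their change.

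Of 19 tested anti-inflammatory mediators and brakes on NF-kB and MAP kinases, 8 rose and 1 fell, against 1.43% raised and 0.415% lowered over all genes tested, with a median log2 fold change of 0.0895. Zfp36l2, an RNA-binding protein that promotes decay of AU-rich mRNAs, stood at 75.2, 76.4 and 74 CPM with ethanol and 181, 172 and 159.5 CPM with Dex, with no overlap (log2 fold change 1.18, SE 0.0480, adjusted p = 7.68e-16). Its relative Zfp36, or tristetraprolin, rose from 7.67 ± 0.398 to 10.8 ± 0.980 CPM (log2 fold change 0.50, adjusted p = 0.0011). Dusp1, the phosphatase that turns off p38 and JNK kinases, rose from 15.8 ± 0.831 to 23.6 ± 0.721 CPM (log2 fold change 0.59, adjusted p = 7.96e-07), and Irak3, an inhibitory member of the IRAK family, from 4.80 ± 0.399 to 7.65 ± 0.513 CPM (log2 fold change 0.67, adjusted p = 0.000224). The others were Tsc22d3, Per1, Sphk1 and Cebpd. The 10 members not called were Nfkbia, Nfkbib, Nfkbie, Tnfaip3, Tnip1, Tnip2, Socs1, Socs3, Anxa1 and Adora2a, each at an adjusted p of 0.543 or above. Of the raised genes, Tsc22d3, Per1, Cebpd, Dusp1 and Zfp36 are also on the list of GR-induced genes. The lists share members, so their counts are not separate results. Zfp36l1 fell (log2 fold change -0.29, adjusted p = 0.0255), a call lost without Dex 2, Dex 3, ethanol 1, ethanol 2 or ethanol 3 (adjusted p up to 0.205).

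Of 31 chemokines, cytokines and NF-kB targets only 18 passed the low-count filter, none rose and 2 fell, against 0.415% lowered over all genes tested (median -0.0529). Csf1, the macrophage growth factor, stood at 323, 321 and 334 CPM with ethanol and 289, 284 and 277 CPM with Dex, with each Dex library below each ethanol library (log2 fold change -0.20, SE 0.0359, adjusted p = 0.000903). Irf1, an interferon-response factor, was at 31.2, 30.9 and 31.6 CPM with ethanol and 24.1, 24 and 26.6 CPM with Dex, again without overlap (log2 fold change -0.33, SE 0.0518, adjusted p = 0.000162). Ccl2, a chemokine classically lowered by glucocorticoids, did not pass the test (log2 fold change -0.14, adjusted p = 0.639), nor did Ptgs2, the inducible cyclooxygenase (log2 fold change -0.10, adjusted p = 0.579). Il6, Tnf, Il1b and Cxcl2 were filtered out for low counts. Among genes noticed after their values were seen, the NF-kB signalling kinases Ripk2 (77.2 ± 1.54 to 63.9 ± 2.33 CPM; log2 fold change -0.27, adjusted p = 7.26e-05) and Irak2 (36.1 ± 0.375 to 30.1 ± 1.58 CPM; log2 fold change -0.26, adjusted p = 0.000983) fell.

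Of 26 tested growth factor ligands and feedback genes of ERK signalling 7 fell and 1, Errfi1, rose, against 0.415% lowered over all genes tested, and the list's median was -0.133. Plau, the urokinase plasminogen activator, stood at 18.1, 18.2 and 20.6 CPM with ethanol and 13.8, 11.4 and 12.9 CPM with Dex (log2 fold change -0.57, SE 0.0693, adjusted p = 2.56e-06). Phlda1, an ERK-responsive gene, was at 21.5, 21.2 and 22.4 CPM with ethanol and 16.6, 13.8 and 14.1 CPM with Dex (log2 fold change -0.55, SE 0.0724, adjusted p = 1.13e-05). Ereg, the EGF receptor ligand epiregulin, was at 27.2, 25.2 and 24.9 CPM with ethanol and 19.4, 19.2 and 20.8 CPM with Dex (log2 fold change -0.38, SE 0.0566, adjusted p = 7.51e-05). In each of them the highest Dex library lay below the lowest ethanol library.

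The ligand gene Hbegf fell (log2 fold change -0.32, adjusted p = 0.00574), a call lost without ethanol 3 (adjusted p = 0.0563). The MAP kinase phosphatases Dusp4 (97.5 ± 3.20 to 78.1 ± 1.52 CPM; log2 fold change -0.32, adjusted p = 0.000938) and Dusp14 (37.2 ± 1.11 to 31.5 ± 0.553 CPM; log2 fold change -0.24, adjusted p = 0.00312) fell while Dusp1 rose. Dusp6 was the last of the 7 (log2 fold change -0.32, adjusted p = 0.0344), and was not called without Dex 1, Dex 2, ethanol 1, ethanol 2 or ethanol 3 (adjusted p up to 0.211). Over the 6 fits that left out 1 library, 5 to 7 genes of the list fell. Bdnf, the neurotrophin gene, lay outside the lists and was lower by 1.42-fold, at 37.7, 34.8 and 35.6 CPM with ethanol and 23.9, 26.8 and 25.5 CPM with Dex (log2 fold change -0.51, SE 0.0520, adjusted p = 1.46e-07). Its groups did not overlap.

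Of 25 immediate early and AP-1 genes 5 fell and none rose, against 0.415% lowered over all genes tested (median -0.134). Ier3, a stress-responsive early gene, stood at 37, 30.4 and 32.9 CPM with ethanol and 24.7, 25.2 and 23.4 CPM with Dex, without overlap (log2 fold change -0.45, SE 0.0619, adjusted p = 1.98e-05). Ier5 (log2 fold change -0.27, adjusted p = 0.000774) and the zinc-finger factor Klf10 (log2 fold change -0.28, adjusted p = 0.0035) fell in every leave-one-out fit. Jun, the AP-1 subunit, was called with all libraries (log2 fold change -0.23, adjusted p = 0.0447) but not in any of the 6 fits that left out 1 library (adjusted p up to 0.247), and Klf5 (log2 fold change -0.24, adjusted p = 0.0228) was not called without Dex 2, Dex 3, ethanol 1 or ethanol 2 (adjusted p up to 0.167). The list counted 3 lowered genes without Dex replicate 2, without Dex replicate 3, without ethanol replicate 1 or without ethanol replicate 2, and 6 without Dex replicate 1. Fos (log2 fold change -0.11, adjusted p = 0.963) and Myc (log2 fold change -0.12, adjusted p = 0.561) did not pass the test.

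**Figure D3:**
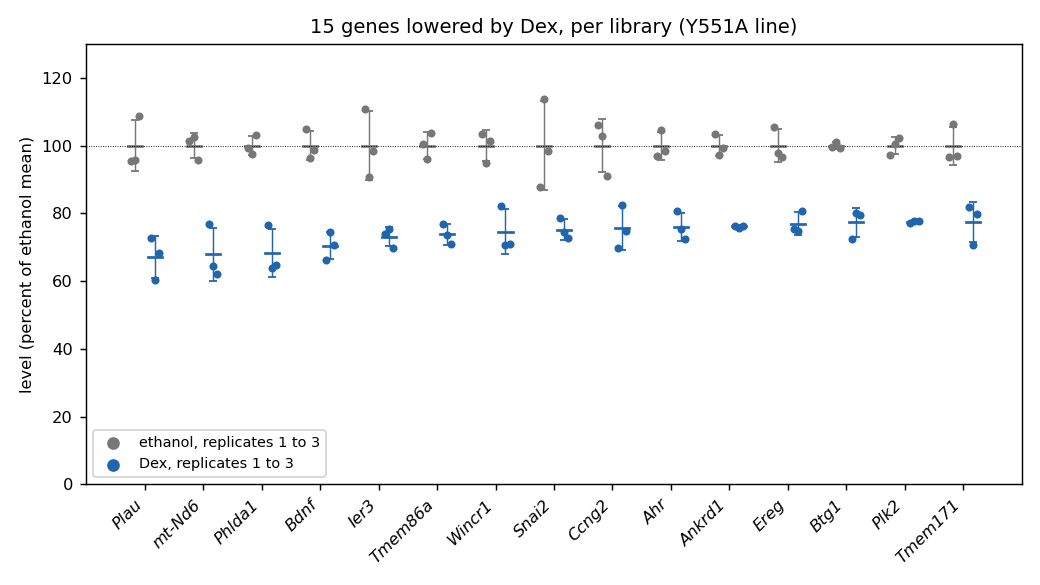
Level of 15 genes lowered by Dex in the Y551A line, as a percent of the gene's ethanol mean, with one point per library (grey ethanol, blue Dex), the mean as a bar and the SD as whiskers, n = 3. Every Dex library lies below every ethanol library of the same gene, and the changes are small, from a log2 fold change of -0.57 for Plau to -0.37 for Tmem171.

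Other lowered genes of the plot had varied roles. Ahr, the aryl hydrocarbon receptor, fell from 32.9 ± 1.36 to 25.1 ± 1.36 CPM (log2 fold change -0.39, adjusted p = 0.000132). Tmem86a, a lysoplasmalogenase, fell from 5.56 ± 0.216 to 4.10 ± 0.164 CPM (log2 fold change -0.44, adjusted p = 0.00327). Snai2, a repressor of epithelial genes, was lower (log2 fold change -0.41, adjusted p = 0.0207), but not called without Dex 2, Dex 3, ethanol 2 or ethanol 3 (adjusted p up to 0.244). Ccng2, an atypical cyclin (log2 fold change -0.40, adjusted p = 0.0404), was not called without Dex 1, Dex 3, ethanol 1 or ethanol 2 (adjusted p up to 0.228). Tmem171 (log2 fold change -0.37, adjusted p = 0.0463) was not called in any of the 6 fits that left out 1 library (adjusted p up to 0.254), nor was the long noncoding RNA Wincr1 (log2 fold change -0.42, adjusted p = 0.0478) without Dex 2, Dex 3, ethanol 1, ethanol 2 or ethanol 3 (adjusted p up to 0.213).

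In the circadian clock 5 of 19 tested genes rose and none fell, against 1.43% raised over all genes tested (median 0.0135). The lists that follow stand against the same 1.43% raised and 0.415% lowered. Per2, a paralogue of Per1, stood at 19.3, 22 and 21.8 CPM with ethanol and 34.5, 34.8 and 32.2 CPM with Dex, without overlap (log2 fold change 0.69, SE 0.0617, adjusted p = 1.13e-08). Nfil3, a repressor of D-box genes, rose from 51.5 ± 2.92 to 74.3 ± 3.44 CPM (log2 fold change 0.53, adjusted p = 2.58e-07), and Bhlhe41, a repressor of E-box genes, from 39 ± 0.758 to 51.5 ± 1.93 CPM (log2 fold change 0.40, adjusted p = 1.41e-05). Bhlhe40 rose less (log2 fold change 0.20, adjusted p = 0.0155), a call lost without Dex 2, ethanol 1 or ethanol 2 (adjusted p up to 0.164). All 5 encode transcriptional repressors, and the other 14 tested genes of the list were not called. Repressors were also among those not called, such as Per3, Cry1, Cry2, Nr1d1 and Nr1d2.

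Genes of TGF-beta, BMP and YAP signalling moved both ways: of 26 tested, 3 rose and 6 fell (median -0.0173). The raised genes included Ccn2 and Id1, an inhibitor of basic helix-loop-helix factors, the latter rising from 35 ± 0.807 to 45.9 ± 1.65 CPM (log2 fold change 0.39, adjusted p = 1.08e-05). Ankrd1, a YAP-responsive cofactor, was at 368, 346 and 352 CPM with ethanol and 271, 269 and 271 CPM with Dex, without overlap (log2 fold change -0.39, SE 0.0366, adjusted p = 2.23e-08). Ccn1 (log2 fold change -0.18, adjusted p = 0.00451) was not called without ethanol 1 (adjusted p = 0.054). Ajuba (log2 fold change -0.19, adjusted p = 0.0136), a LIM protein, was not called without Dex 3, ethanol 1 or ethanol 3 (adjusted p up to 0.177), and Id3 (log2 fold change -0.22, adjusted p = 0.0262) was not called without Dex 1, Dex 3, ethanol 1 or ethanol 3 (adjusted p up to 0.212). Inhba, the activin subunit (log2 fold change -0.21, adjusted p = 0.0415), was not called in any of the 6 fits that left out 1 library (adjusted p up to 0.211). With Snai2 they made up the 6, and the list counted 2 lowered genes without Dex replicate 3, without ethanol replicate 1 or without ethanol replicate 3.

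Lipid storage and adipogenic genes rose in 6 of 24 tested, with none lowered (median 0.0263). Plin4, a lipid-droplet coat protein, stood at 299, 288 and 306 CPM with ethanol and 382, 385 and 356 CPM with Dex, with Dex above ethanol in every library (log2 fold change 0.33, SE 0.0416, adjusted p = 5.28e-06). The others were Fabp4, Angptl4, Cebpb, Cebpd and Klf15, and all of these but Fabp4 are also on the list of GR-induced genes. Of 18 acute-phase, metal-binding and S100 genes 7 rose and 1 fell (median 0.154). Slc39a14, a zinc and iron importer, was at 129, 129 and 129 CPM with ethanol and 216, 203 and 197 CPM with Dex, without overlap (log2 fold change 0.67, SE 0.0405, adjusted p = 3.17e-12), and Cp, ceruloplasmin, rose from 43.5 ± 0.574 to 56.7 ± 0.854 CPM (log2 fold change 0.38, adjusted p = 1.92e-05). S100a6, with the call limit given above, fell from 2185 ± 38.1 to 1889 ± 143 CPM (log2 fold change -0.21, adjusted p = 0.00745).

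Growth-arrest and DNA-damage genes split. Of 24 tested, 5 rose and 4 fell (median -0.0108). Gadd45g, a stress sensor, rose from 63.5 ± 3.26 to 88.9 ± 4.15 CPM (log2 fold change 0.49, adjusted p = 1.74e-07), and Sesn1, a sestrin, from 22.1 ± 0.407 to 27.8 ± 2.13 CPM (log2 fold change 0.33, adjusted p = 0.00238). Plk2, a Polo-like kinase, stood at 195, 202 and 205 CPM with ethanol and 155, 156 and 156 CPM with Dex, without overlap (log2 fold change -0.37, SE 0.0416, adjusted p = 7.96e-07). The antiproliferative gene Btg1 fell from 216 ± 2.20 to 167 ± 9.04 CPM (log2 fold change -0.37, adjusted p = 3.69e-08). Gadd45a fell (log2 fold change -0.27, adjusted p = 0.0261), but was not called without Dex 1, Dex 2, ethanol 1 or ethanol 2 (adjusted p up to 0.156), and Plk3 rose (log2 fold change 0.44, adjusted p = 0.0206), but was not called without Dex 2, Dex 3, ethanol 1, ethanol 2 or ethanol 3 (adjusted p up to 0.147). The lowered count was 2 without Dex replicate 1 or without ethanol replicate 2.

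In glucose, glutamine and amino acid metabolism 5 of 29 tested genes rose and none fell (median 0.0201); without Dex replicate 1 the list had 5 raised genes and 1 lowered. The 5 raised with all libraries were Glul, Ampd3 and the insulin-signalling genes Irs2, Pik3r1 and Foxo3, a forkhead factor that rose from 62.5 ± 1.68 to 73.2 ± 2.86 CPM (log2 fold change 0.23, adjusted p = 0.00473). All of them but Foxo3 are also on the list of GR-induced genes. Of 23 genes listed as SOCS-box, arrestin and E3 adaptor genes Spsb1, Arrdc2 and Nedd9 (log2 fold change 0.27, adjusted p = 0.00118) rose, with a list median of 0.0135. Nedd9 is a scaffold that belongs to none of these classes. Socs5, a suppressor of cytokine signalling, fell from 159.8 ± 1.67 to 128 ± 2.94 CPM (log2 fold change -0.32, adjusted p = 1.22e-07). Sgk1 was the 1 raised gene of 16 for ion transport, and the median was 0.0445.

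Of 24 tested genes for the receptor, its chaperones and coregulators 3 rose (median 0.0498): Nr3c1, Fkbp5 and Dnaja1, an Hsp40 co-chaperone (log2 fold change 0.21, adjusted p = 0.0126). Dnaja1 was not called without Dex 3, ethanol 1 or ethanol 3 (adjusted p up to 0.193), and without Dex replicate 3, ethanol replicate 1 or ethanol replicate 3 Fkbp5 was the 1 gene of the list that rose. Of the 25 genes of the integrated stress response only Ddit3 fell (log2 fold change -0.33, adjusted p = 0.0121), with a median of -0.0184, and it was not called without Dex 1, ethanol 1 or ethanol 2 (adjusted p up to 0.108). Without Dex replicate 1 the list had 1 raised gene and none lowered. None of 30 cell-cycle genes was called in edgeR's test (median 0.0181), and none was called in the 6 fits that left out 1 library.

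**Figure D4:**
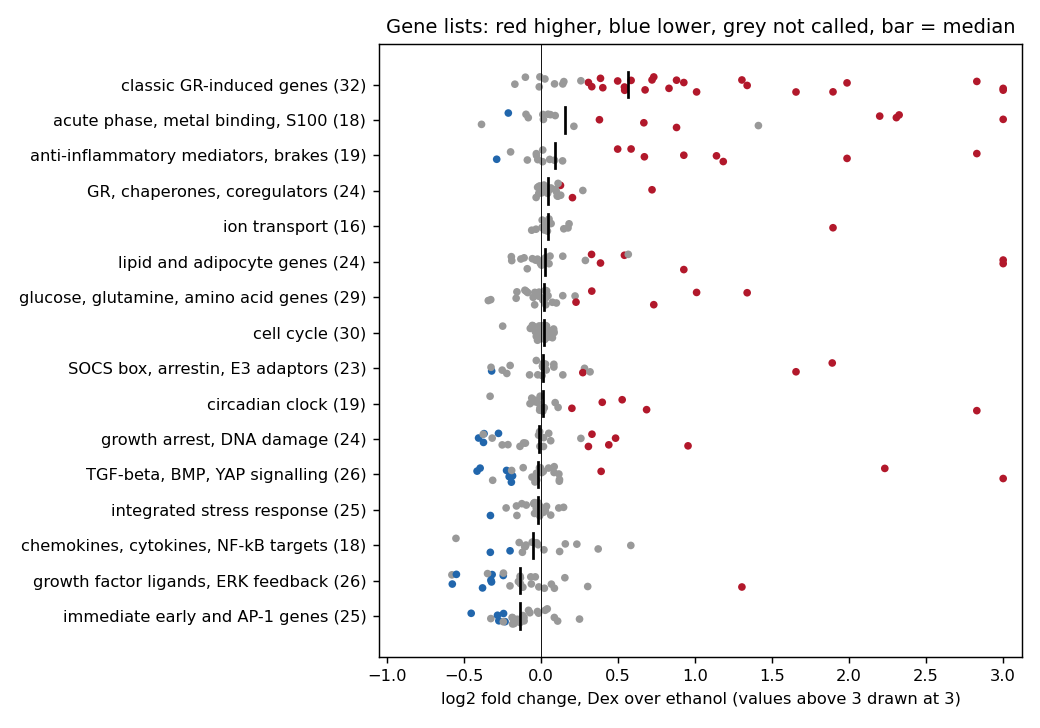
Log2 fold change of Dex over ethanol in the Y551A line for the tested members of 16 gene lists (number tested in parentheses), with one point per gene, red for raised, blue for lowered and grey for not called, and the list's median as a bar; values above 3 are drawn at 3. The list of classic GR-induced genes has the highest median, 0.565, and the immediate early and AP-1 genes the lowest, -0.134.

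Several gene families, picked after the values were seen, held members that moved in opposite directions. In the CCN family Ccn2 rose and Ccn1 stood at 351, 337 and 339 CPM with ethanol and 302, 302 and 301 CPM with Dex, each Dex library below each ethanol library. Per length, Ccn1 remained above Ccn2, with 169.6 CPM per kb of exon with ethanol and 149 with Dex. In the TSC22 family Tsc22d3 and Tsc22d1 (log2 fold change 0.29, adjusted p = 1.33e-05) rose and Tsc22d2 fell from 164 ± 9.40 to 132 ± 12.6 CPM (log2 fold change -0.31, adjusted p = 0.000392). In the KLF family Klf9, known as a GR target, rose from 29.4 ± 0.858 to 52.3 ± 0.365 CPM (log2 fold change 0.83, adjusted p = 1.11e-12) while Klf10 fell from 50.2 ± 1.72 to 41.4 ± 0.653 CPM. Of 4 TEAD factors, the DNA-binding partners of YAP, Tead4 was the 1 gene called and rose from 20.1 ± 1.01 to 33.9 ± 0.918 CPM (log2 fold change 0.76, adjusted p = 5.35e-10). Among the 3 PER genes 2 rose, and among 4 tensins, which link actin to integrins, Tns1 (log2 fold change 0.93, adjusted p = 1.17e-06) and Tns2 (log2 fold change 0.68, adjusted p = 7.76e-08) rose.

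Within 50 kb of each other lay 17 pairs of called genes, and both rose in 16 of them, in a response where 230 of the 297 called genes rose. Another raised gene lay within 50 kb of 32 of the 230 raised genes (13.9%) and of 473 of 15806 genes not called (2.99%), as a description with no test. Id1 and Bcl2l1 on chromosome 2, Acer3 and Tsku on chromosome 7, and Il12rb1 and Arrdc2 on chromosome 8 were such pairs, with gaps of 43258, 29460 and 13705 bp. Acer3 was not called without Dex 3 or ethanol 3 (adjusted p up to 0.0637), nor Il12rb1 without Dex 1, ethanol 2 or ethanol 3 (adjusted p up to 0.167). Orm1 and Orm3 lie 7999 bp apart, and 2 pairs overlap as a gene and a transcript inside its intron. S100a7a and S100a6, 29836 bp apart on chromosome 3, were the pair that moved in opposite directions.

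Noncoding and mitochondrial RNAs were among the lowered ones. Rn7sk, the 7SK RNA that holds the elongation factor P-TEFb inactive, stood at 26970, 25050 and 25460 CPM with ethanol and 20420, 22890 and 22250 CPM with Dex, without overlap (log2 fold change -0.24, SE 0.0484, adjusted p = 0.00326); without Dex replicate 1, the lowest of the 6, it was -0.19 (adjusted p = 0.0321). Small noncoding RNAs, with Rn7sk included, took 3.10, 3.35 and 3.28% of counted reads with Dex and 3.87, 3.63 and 3.66% with ethanol. Rn7sk alone took 2.05, 2.29 and 2.23% with Dex and 2.70, 2.51 and 2.54% with ethanol. The sum was thus lower in every Dex library, but Rn7sk made up most of it and most of its drop. The mitochondrial gene mt-Nd6 was at 25.6, 25.9 and 24.2 CPM with ethanol and 19.4, 16.3 and 15.7 CPM with Dex (log2 fold change -0.56, SE 0.104, adjusted p = 0.00142), with the Dex libraries lower. Mitochondrial genes as a whole took 2.35, 1.84 and 1.85% of reads with Dex and 2.18, 2.44 and 2.17% with ethanol, so the ranges overlapped.

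Nearly every gene called in the Y551A line changed in the same direction in the wild-type receptor line. Of its 230 raised genes 227 had the same sign in the wild-type line and 193 were called there too, and of its 67 lowered genes 64 had the same sign and 50 were called. Larger changes in the wild-type line were seen for 156 of the raised genes (67.8%) and 46 of the lowered (68.7%), with medians of 0.496 against 0.385 and -0.378 against -0.304. These genes were chosen by their calls in the Y551A line, so the counts and medians are a description. Genes called only in the wild-type line are not among them. The difference between the responses of the lines, tested gene by gene as an interaction, was called for 19 genes with a more negative value in Y551A (0.118%) and 10 with a more positive one (0.062%). Of these, 11 and 3 were called in all 12 fits that left out 1 library of either line. The count of 29 fell to between 17 and 19 without Y551A ethanol replicate 1, 2 or 3, wild-type ethanol replicate 1 or 3, or wild-type Dex replicate 1 or 3.

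All 19 genes with a more negative difference were raised in the wild-type line, and 18 of them were raised in Y551A too. Sgk1, at the Y551A levels given above, stood in the wild-type line at 146, 149 and 149 CPM with ethanol and 790.1, 788 and 793 CPM with Dex, so that line began lower and ended above all Dex libraries of Y551A (difference -0.52 on the log2 scale, SE 0.0517, adjusted p = 3.92e-06). Gata3, a transcription factor of luminal mammary cells, stood at 6.02, 7.18 and 6.05 CPM with ethanol and 9.94, 8.90 and 8.31 CPM with Dex in Y551A and at 6.83, 7.07 and 6.98 CPM with ethanol and 18.6, 20.9 and 17.9 CPM with Dex in the wild-type line. The ethanol levels overlapped and the Dex levels did not (difference -0.96 on the log2 scale, SE 0.130, adjusted p = 0.000273). Map7d2 stood in the wild-type line at 2.65, 2.63 and 2.81 CPM with ethanol and 12.9, 14 and 12.6 CPM with Dex, with Dex levels above those of Y551A (difference -1.08 on the log2 scale, SE 0.182, adjusted p = 0.00413).

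Arl4d showed a higher ethanol level in Y551A, at 22.2, 20.9 and 21.8 CPM with ethanol and 51.1, 58.6 and 53.2 CPM with Dex, against 12.8, 11.7 and 11.9 CPM with ethanol and 50.5, 54.8 and 50.9 CPM with Dex in the wild-type line, while the Dex levels were closer (difference -0.77 on the log2 scale, SE 0.0817, adjusted p = 6.33e-06). Id1 likewise began higher in Y551A, at 35.8, 34.1 and 35 CPM with ethanol and 44, 47.1 and 46.5 CPM with Dex, than in the wild-type line, at 25.8, 24.6 and 23.8 CPM with ethanol and 47.5, 45.5 and 47 CPM with Dex, and ended at a similar level (difference -0.52 on the log2 scale, SE 0.0734, adjusted p = 0.000465). For these genes and for Sgk1 a smaller fold change went with a higher starting level, and its part in the difference was not tested. Spsb1, by contrast, began at a similar level and ended lower in Y551A (wild type 7.54, 6.46 and 7.99 CPM with ethanol and 40.1, 45.5 and 43.1 CPM with Dex; difference -0.66 on the log2 scale, SE 0.110, adjusted p = 0.00373). The other genes with a more negative difference called in all 12 fits, with that difference in parentheses, were Sphk1 (-0.57), Plin4 (-0.44), Tsc22d3 (-0.42), Klf9 (-0.41) and Bcl2l1 (-0.38).

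Of the 10 genes with a more positive difference, 8 were lowered in the wild-type line. Of these, Plk2, Ankrd1, Thbs1 and Gadd45a were also called lowered in Y551A, by less. Ptgs2, Dusp10, Chac1 and Enc1 were not called in Y551A (adjusted p of 0.371 or above). Plk2 fell in the wild-type line from a higher ethanol level, at 233, 246 and 235 CPM with ethanol and 132, 127 and 133 CPM with Dex, to below all Dex libraries of Y551A (difference 0.49 on the log2 scale, SE 0.0588, adjusted p = 4.78e-05). Ankrd1 had higher levels in Y551A under both treatments, with the wild-type line at 217, 208 and 202 CPM with ethanol and 131, 122 and 129.8 CPM with Dex (difference 0.32 on the log2 scale, SE 0.0521, adjusted p = 0.00373). Tnfrsf1b, a receptor for tumour necrosis factor, was raised in Y551A, at 57.6, 57.1 and 56.5 CPM with ethanol and 77.2, 75.3 and 72.8 CPM with Dex, and not called in the wild-type line, at 70.9, 73.8 and 69.1 CPM with ethanol and 76.3, 69.9 and 74.2 CPM with Dex (difference 0.35 on the log2 scale, SE 0.0623, adjusted p = 0.00785). Lce1g, a gene of the late cornified envelope, was also raised in Y551A, at 46.4, 44.2 and 45.1 CPM with ethanol and 70.5, 63.8 and 64.6 CPM with Dex, against 23.2, 21.6 and 22.5 CPM with ethanol and 23.4, 22 and 23.9 CPM with Dex (difference 0.51 on the log2 scale, SE 0.0970, adjusted p = 0.0174). That difference was not called without wild-type Dex 2, wild-type ethanol 1, wild-type ethanol 3, Y551A ethanol 2 or Y551A ethanol 3 (adjusted p up to 0.0767). The log2 fold change of Nr3c1 itself was 0.13 in Y551A and -0.06 in the wild-type line, a difference that missed the threshold (adjusted p = 0.0705). That difference passed when only the 12 libraries of both lines were fitted (adjusted p = 0.0287), with a filter at 1 CPM (adjusted p = 0.0441), in limma-voom (adjusted p = 0.04) and in DESeq2 (adjusted p = 0.000111).

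**Figure D5:**
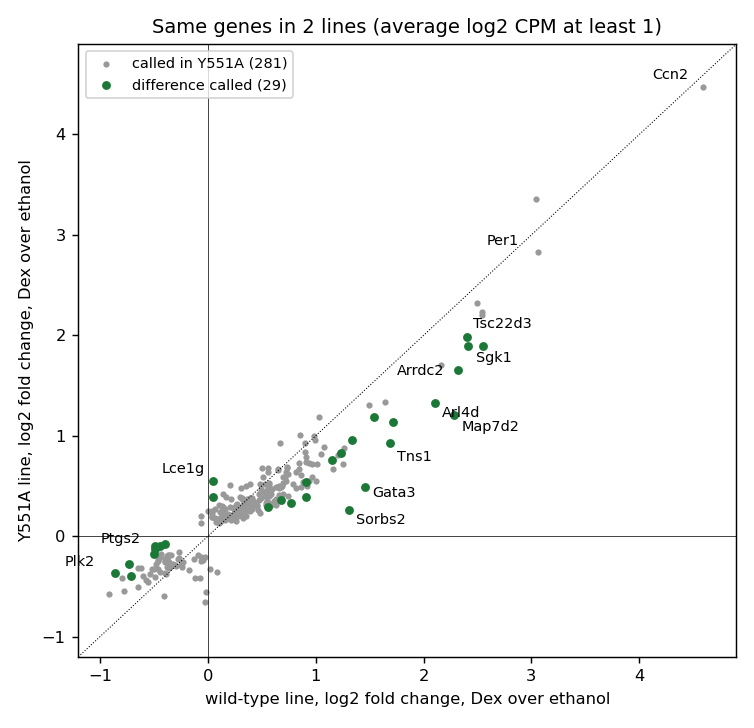
Log2 fold change of Dex over ethanol in the Y551A line (vertical axis) against the wild-type receptor line (horizontal axis), with one point per gene for the 281 genes called in Y551A at an average log2 CPM of at least 1 (grey) and the 29 genes whose response differed between the lines (green); the dotted line marks equal changes. Most raised genes lie at or below the dotted line, with Gata3, Map7d2 and Arl4d among those farthest below it, while Lce1g lies above it.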

How the data were processed

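Total RNA of 34 libraries was sequenced, and the 6 Y551A libraries and 6 wild-type libraries of the same library set are described. Reads were processed with bcl2fastq 2.17, cutadapt, STAR and featureCounts on mm10, per the submitters' processing notes. The authors deposited raw exon counts for each gene name, made with featureCounts 2.0.3 and reverse-stranded counting (option 2), per the file headers. Both mates of a pair were counted and duplicates kept, so counts are not independent molecules. The labels name a different library kit in each of a pair of batches but do not assign libraries to them.

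Counts of the 18 libraries of the set (Y551A, wild type and Y551A-Dim; 44998213 to 70124595 reads) were fitted together with edgeR 4.0.16 in R 4.3.3, with filterByExpr (16140 genes), TMM scaling and a quasi-likelihood test on 1 mean per group (12 residual degrees of freedom, biological coefficient of variation 5.13%), with two-sided p-values under Benjamini-Hochberg adjustment across the 16140 genes. The script was tested on simulated data. SE is the change divided by the square root of the F statistic, and levels are CPM of the TMM-adjusted library. The difference between lines is the interaction term. Alternatives used limma 3.58.1 and DESeq2 1.42.0. Gene lists, their members and the rule for named genes were chosen with earlier results of these data known. The rule named 24 raised and 16 lowered genes with the largest changes at an average log2 CPM of at least 1 without overlap, up to 4 called members of each list, 8 lower and 6 higher differences, and 15 preset genes. Genes named outside it were chosen after their values were seen. Results for a few genes are not reported here.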

Additional observations from a re-analysis of the deposited data

Results flagged for a closer look

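The response to Dex differed between the Y551A and the wild-type line, by the test of the difference itself in edgeR's quasi-likelihood fit, for 29 of 16140 genes. Values are Y551A minus wild type on the log2 scale, from 6 libraries per line. More negative in Y551A were Map7d2 (-1.08), Sorbs2 (-1.04), Gata3 (-0.96), Arl4d (-0.77), Tns1 (-0.76), Arrdc2 (-0.67), Spsb1 (-0.66), Sphk1 (-0.57), Id1 (-0.52), Sgk1 (-0.52), Plin4 (-0.44), Tsc22d3 (-0.42), Klf9 (-0.41), Tead4 (-0.40), Bcl2l1 (-0.38), Rhob (-0.37), Foxred2 (-0.36), Ly6a (-0.32) and Tsc22d1 (-0.27).

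More positive in Y551A were Lce1g (0.51), Plk2 (0.49), Gadd45a (0.46), Ptgs2 (0.39), Dusp10 (0.35), Chac1 (0.35), Tnfrsf1b (0.35), Thbs1 (0.33), Enc1 (0.32) and Ankrd1 (0.32). Sorbs2, an adaptor of actin and focal adhesions, was the only gene of the first group not called in Y551A itself, at 3.99, 3.60 and 4.44 CPM with ethanol and 6.41, 4.60 and 3.36 CPM with Dex, against 4.65, 4.47 and 4.58 CPM with ethanol and 11.3, 11 and 11.6 CPM with Dex in the wild-type line. That difference was not called without wild-type ethanol 2 or Y551A ethanol 3 (adjusted p up to 0.0805). Without Y551A Dex replicate 1, the library that stood apart, the differences of Dusp10 (adjusted p = 0.0646), Enc1 (adjusted p = 0.0975) and Ly6a (adjusted p = 0.063) were not called. In the fits that left out 1 library of either line, the lowest counts were 13 more negative and 4 more positive genes. Of the 29, 11 more negative and 3 more positive genes were called in every such fit.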

How the results depend on the processing

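Over 2737 alternative values for 169 results on named genes, 2459 kept their direction and their side of the threshold, 253 lost the call, 22 gained it and 3 changed sign, in genes not called. Changes touched 47 results. Leaving out 1 library gave log2 fold changes of -0.00981 to 0.46 for Sorbs2 and -0.20 to 0.019 for Fos, and a difference between lines of -0.28 to 2.26 for Lcn2. Leaving out 1 library at a time gave 223 to 304 called genes (181 to 216 raised, 42 to 88 lowered, 63 to 70 raised and 3 to 19 lowered at least 1.5-fold) and 17 to 32 differences between lines (4 to 8 more positive and 13 to 24 more negative in Y551A). With no low-count filter 130 genes fell, 25 of them at least 1.5-fold, and 109 differences were called (36 more positive, 73 more negative). Fitting only the 12 libraries of both lines called 70 differences (23 and 47). DESeq2 called 61 (28 and 33), with 8 genes lowered at least 1.5-fold, against 3 with limma-voom. At an adjusted p below 0.01, 39 genes fell, 1 of them at least 1.5-fold. With only the 6 Y551A libraries fitted, 289 genes were called, 267 of them shared with the 297 of the main fit. The cause of these moves was not tested. With the replicate block 252 genes were called (205 raised, 47 lowered, 2 of these at least 1.5-fold), 250 of them shared with the 297, and 20 differences (6 and 14). Same-numbered Y551A libraries deviated together with r = 0.0816, -0.0135 and 0.0051, so the numbers were not taken as pairs, and not every library correlated best with its own number. Counts of list members under left-out libraries were added after the data had been seen.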

Other observations

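Several single genes with known roles at integrin adhesions or in the actin cytoskeleton were picked because they rose, so they make no statement on such genes as a class, and the adaptor gene Sorbs2 was not called (adjusted p = 0.661). Itga5, the fibronectin receptor subunit, stood at 106, 109 and 107 CPM with ethanol and 167, 144 and 144 CPM with Dex, without overlap (log2 fold change 0.50, SE 0.0522, adjusted p = 1.97e-07). Sorbs3, an adaptor at focal adhesions (log2 fold change 0.40, adjusted p = 4.41e-05), Pxn, the scaffold paxillin (log2 fold change 0.25, adjusted p = 0.00548), Peak1, a pseudokinase of adhesion signalling (log2 fold change 0.48, adjusted p = 0.000307), and Ezr, the membrane-actin linker ezrin (log2 fold change 0.47, adjusted p = 3.69e-08), rose as well. All 5 were called in every fit that left out 1 library, but without Dex replicate 1 the log2 fold change of Peak1 dropped to 0.31 (adjusted p = 0.00171). Those of Itga5, Sorbs3 and Pxn dropped to 0.42, 0.32 and 0.21, and that of Ezr stayed at 0.47.

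Other raised genes outside the lists were picked in the same way. Pim3, a survival kinase, went from 32.1 ± 0.934 to 59.5 ± 2.40 CPM (log2 fold change 0.89, adjusted p = 1.45e-12), and Wee1, which holds cells before mitosis, from 39.1 ± 0.985 to 62.6 ± 1.53 CPM (log2 fold change 0.68, adjusted p = 1.11e-12). Sik1, a salt-inducible kinase, went from 6.81 ± 0.428 to 11.2 ± 1.12 CPM (log2 fold change 0.72, adjusted p = 2.82e-06), and Deptor, an inhibitor of mTOR, from 42 ± 0.471 to 54.8 ± 7.04 CPM (log2 fold change 0.39, adjusted p = 0.000152). Among factors, Hmga2, a chromatin architectural protein, rose from 70.7 ± 3.84 to 109 ± 7.01 CPM (log2 fold change 0.62, adjusted p = 1.56e-08), Sox9 from 80.6 ± 1.79 to 108 ± 16.9 CPM (log2 fold change 0.42, adjusted p = 0.00144) and Vdr, the vitamin D receptor, from 48 ± 2.27 to 63.7 ± 1.86 CPM (log2 fold change 0.41, adjusted p = 1.65e-05). Glrx, the antioxidant glutaredoxin, rose from 12.6 ± 0.905 to 22.1 ± 0.222 CPM (log2 fold change 0.81, adjusted p = 2.73e-09). Without Dex replicate 1 the log2 fold change dropped to 0.29 for Sox9 (adjusted p = 0.0237) and to 0.28 for Deptor (adjusted p = 0.00128).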
